A study of Mus musculus with 9 samples.

Results

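The RNA of 10 genes of MHC class I and class II antigen presentation was followed through 9 mammary tumours: the class I chains H2-K1, H2-D1 and B2m, the peptide supply genes Psmb8, Psmb9, Tap1 and Tap2, and the class II genes H2-Aa, H2-Ab1 and Cd74. They were chosen by symbol, with no cutoff on their values but with earlier results of these data known, from the 18484 genes of the deposited files, and all 10 passed the filter on low counts. The tumours arose in BlgCre-NeuKI mice of a mixed FVB/C57Bl6 background, heterozygous for both alleles, in which Cre under the Beta-lactoglobulin promoter activates a rat Neu oncogene placed in the Erbb2 locus in luminal mammary cells. High amplification of this locus (high-amplified) marked 5 tumours, all of them adenocarcinomas of no special type, AC(NST). Of these, virgin mice gave 3 (MS1163.1, MS1163.2, MS1213.1) and parous mice 2 (MS1155.3, MS1218.2). The other 3 epithelial tumours were not/low-amplified and all parous, namely the adenosquamous carcinomas (ASQC) MS1349.1 and MS1210.1 and the AC(NST) MS1166.1. The remaining tumour, MS1156.1, was a sarcoma from a parous mouse. In the paper the amplification groups rest on quantitative PCR of genomic DNA. By its droplet digital PCR, MS1213.1 and MS1218.2 were low instead, and its exome data gave amplification in MS1213.1 but not in MS1218.2. No control without the oncogene was analysed here, and the ages of the mice are not used here.

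Each tumour gave 1 library of ribosomal RNA-depleted total RNA, with 12501225 to 23912429 reads counted on genes. Values are normalized counts, meaning counts divided by 1 size factor per tumour. Amplification, histotype and parity overlap: every virgin tumour was high-amplified, and both ASQCs were not/low-amplified. MS1163.1 and MS1163.2 carry the same mouse number, so the 3 virgin tumours have 2 mouse numbers, and p-values treat every tumour as independent. MS1218.2 was described in the study's methods as less pure in tumour cells than the others, and here its summed macrophage markers (9 genes) were 87272, against 5467 to 23385 in the other epithelial tumours. The epithelial label was matched by Epcam, a cell adhesion protein of epithelia, at 7106 to 15685 in the 8 epithelial tumours and 54.0 in the sarcoma.

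MHC class I molecules, a heavy chain with beta-2 microglobulin, display peptides made in the cell to CD8 T cells. The proteasome cuts these peptides, with Psmb8 and Psmb9 as subunits that interferon gamma induces, and the transporter formed by Tap1 and Tap2 carries them into the endoplasmic reticulum. MHC class II molecules display ingested proteins to CD4 T cells, are found mainly on dendritic cells, macrophages and B cells, and are assembled on the invariant chain Cd74. Class I genes respond to the transactivator Nlrc5 and class II genes to Ciita.

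On GRCm38, 8 of the 10 genes lie on chromosome 17, from H2-K1 (33996017 to 34000347) to H2-D1 (35262730 to 35267499). Between them, Psmb9 (34181987 to 34187764), Tap1 (34187553 to 34197225), Psmb8 (34197721 to 34201454) and Tap2 (34203527 to 34216321) share 34335 bases, next to H2-Ab1 (34257689 to 34269419) and H2-Aa (34282744 to 34287823). B2m lies on chromosome 2 (122147686 to 122153083) and Cd74 on another chromosome. The exons of Psmb9 and Tap1 share 212 bases on opposite strands, and Tap2 shares 533 exon bases with Gm15821, so that their counts depend on a strand setting that is not given in the sources used here. Psmb8 shares 498 exon bases with Gm20496 on the opposite strand, a gene absent from the deposited counts. Of the 76-base stretches of each coding transcript, the share with an exact copy in another gene was 1.42% for H2-K1 and 6.91% for H2-D1. It was 10.7% for Psmb9, 8.82% for Tap2, 4.76% for Tap1, 3.16% for Psmb8 and 0% for B2m and the class II genes. Only uniquely placed reads were counted. H2 genes differ in sequence between mouse strains, and which alleles each mouse carried was not analysed here.

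Promoters (250 bases before to 50 after the start site, RefSeq, GRCm38.p6) were found for 7 of the 10 genes and not for Tap2, H2-Ab1 and Cd74. Those of 5 genes, 1 or more of each role, are shown 5′ to 3′ because their genes carry the patterns among the tumours that are described here. Capitals mark matches on either strand to the CCAAT box (CCAAT), the core of the interferon-stimulated response element (GAAA, any 2 bases, GAAA) and the NF-kB consensus.
H2-K1 (chr17:34000284-34000583, minus strand): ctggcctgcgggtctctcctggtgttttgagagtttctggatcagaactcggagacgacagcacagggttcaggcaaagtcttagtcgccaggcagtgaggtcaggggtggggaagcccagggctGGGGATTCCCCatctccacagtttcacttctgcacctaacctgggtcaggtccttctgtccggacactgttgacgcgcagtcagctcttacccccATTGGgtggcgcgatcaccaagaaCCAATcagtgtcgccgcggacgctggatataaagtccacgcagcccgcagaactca
H2-D1 (chr17:35262844-35263143, plus strand): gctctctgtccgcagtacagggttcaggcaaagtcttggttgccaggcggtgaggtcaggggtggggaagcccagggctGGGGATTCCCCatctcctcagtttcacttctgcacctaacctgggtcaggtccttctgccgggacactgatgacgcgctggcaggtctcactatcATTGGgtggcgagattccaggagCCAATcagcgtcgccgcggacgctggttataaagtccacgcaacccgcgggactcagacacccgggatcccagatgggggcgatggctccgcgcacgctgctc
B2m (chr2:122147437-122147736, plus strand): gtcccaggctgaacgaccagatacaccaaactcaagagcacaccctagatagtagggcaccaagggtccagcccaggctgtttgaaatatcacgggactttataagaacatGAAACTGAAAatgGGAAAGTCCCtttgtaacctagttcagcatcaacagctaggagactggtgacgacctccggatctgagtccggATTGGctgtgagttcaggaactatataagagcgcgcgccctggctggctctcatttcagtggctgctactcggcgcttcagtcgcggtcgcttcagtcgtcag
Tap1 (chr17:34187306-34187605, plus strand): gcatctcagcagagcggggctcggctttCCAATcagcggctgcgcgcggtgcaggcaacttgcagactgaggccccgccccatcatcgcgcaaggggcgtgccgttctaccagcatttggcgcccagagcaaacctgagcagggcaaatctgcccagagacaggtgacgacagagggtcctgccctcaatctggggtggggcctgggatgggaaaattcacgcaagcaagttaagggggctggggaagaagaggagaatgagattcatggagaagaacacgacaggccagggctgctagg
H2-Aa (chr17:34287774-34288073, minus strand): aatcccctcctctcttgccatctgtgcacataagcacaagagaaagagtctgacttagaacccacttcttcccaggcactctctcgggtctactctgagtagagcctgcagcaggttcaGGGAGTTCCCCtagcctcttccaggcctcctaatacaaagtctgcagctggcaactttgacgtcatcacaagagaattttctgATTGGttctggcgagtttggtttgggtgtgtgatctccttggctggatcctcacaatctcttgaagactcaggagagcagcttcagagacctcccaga
The NF-kB consensus was in H2-K1, H2-D1, B2m and H2-Aa, 4 of 7 genes, and in 8.46% of 32841 RefSeq promoters, and H2-K1 and H2-D1 carried the same 11 bases, GGGGATTCCCC. A CCAAT box was in 6 of 7 genes, all but Psmb8, and in 37.4% of promoters. The response element core was in B2m alone of the 7 (3.44% of promoters), the gamma-activated site TTCNNNGAA in Psmb8 alone (8.30%), and the X box of class II genes in none (0.0609%). The windows of Tap1 and Psmb9 overlap on opposite strands and hold the same CCAAT box. The X box and the response element core were each searched as 1 fixed pattern, so that other forms of these elements would be missed. The X box pattern was strict, with matches in 20 of 32841 promoters. Its lack of a match therefore does not show that H2-Aa has no X box. The same limit holds for the response element core in H2-K1 and H2-D1. All matches describe the letters of the reference and were not tested for binding.

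The class I chains were abundant in every epithelial tumour and lowest in the 3 virgin tumours. H2-K1, a classical heavy chain, stood at 4034 (MS1213.1), 5807 (MS1163.1) and 1855 (MS1163.2) in virgin tumours, at 14879 (MS1218.2) and 11301 (MS1155.3) in the parous high-amplified tumours, at 9835 (MS1210.1) and 11625 (MS1349.1) in the ASQCs, and at 10942 in MS1166.1. The 5 parous tumours all lay above the 3 virgin tumours, whereas high-amplified and not/low-amplified tumours overlapped. H2-D1, the other classical heavy chain, was at 3831, 6021 and 2049 in the virgin tumours in the same order, at 14353 and 10626 in the parous high-amplified tumours, at 15361 and 15990 in the ASQCs and at 8861 in MS1166.1. The ASQCs were highest of all and the virgin tumours lowest. B2m, the light chain shared by all class I molecules, was at 3194, 4636 and 1509 in the virgin tumours, 8265 and 8875 in the parous high-amplified tumours, 10098 and 10428 in the ASQCs and 7118 in MS1166.1. Its order was nearly that of H2-D1, with neither ASQC below any AC(NST).

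The 3 chains kept close to each other. The ratio of H2-K1 to B2m normalized counts ran from 0.974 to 1.80 among the epithelial tumours, a spread of 1.85-fold where B2m itself spread 6.91-fold. The ratio of H2-K1 to H2-D1 was 0.640 and 0.727 in the ASQCs and 0.905 to 1.23 in the 6 AC(NST) tumours, a gap noticed after the values were seen and not tested. Per kilobase of exon, the median over the epithelial tumours was 8943 for B2m, 6277 for H2-K1 and 4635 for H2-D1. The medians of the class II genes on this scale were lower, at 2376 for Cd74, 1757 for H2-Aa and 1384 for H2-Ab1, and those of the peptide supply genes lower still, at 931 for Psmb8, 674 for Tap1, 415 for Tap2 and 279 for Psmb9. The ranges of neighbouring genes in this order overlapped.

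The peptide supply genes shared the low virgin values but were highest in a single tumour, MS1166.1. Psmb8, an induced proteasome subunit, was at 703, 885 and 260 in MS1213.1, MS1163.1 and MS1163.2, then at 1473 and 1559 in the parous high-amplified pair, at 1737 and 2420 in the ASQCs, and at 4908 in MS1166.1. All not/low-amplified tumours lay above all high-amplified tumours, and all parous above all virgin. Psmb9, its partner subunit, was at 188, 328 and 87.0 in the virgin tumours, 438 and 510 in the parous high-amplified tumours, 312 and 425 in the ASQCs and 847 in MS1166.1. The ASQC MS1210.1 lay within the virgin range.

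Tap1, a subunit of the peptide transporter, was at 1187, 1256 and 465 in the virgin tumours, 2300 and 2359 in the parous high-amplified tumours, 2023 and 1956 in the ASQCs and 4688 in MS1166.1. Tap2, which pairs with it, was at 1176, 1017 and 352, then 1401 and 1735, then 1459 and 1712, and 3706 in MS1166.1. For both, every parous tumour lay above every virgin tumour, and the ASQCs were within the range of the AC(NST) tumours. Relative to B2m, Tap1 was at 0.659 in MS1166.1 and at 0.188 to 0.372 in the other 7 epithelial tumours, and Psmb8 at 0.690 against 0.172 to 0.232.

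The class II genes followed another order, in which MS1166.1 was lowest and MS1218.2 highest. H2-Aa, the alpha chain of the I-A molecule, was at 3610, 1079 and 964 in MS1213.1, MS1163.1 and MS1163.2, then 5612 in MS1218.2, 1811 for MS1155.3, 3761 and 2153 in the ASQCs and 126 in MS1166.1. H2-Ab1, its beta chain, was at 2520, 719 and 844, 4946 and 1542, 2914 and 1814, and 138 in the same order. Cd74, the invariant chain, was at 6397, 1443 and 1273, 14408 and 2812, 7158 and 3916, and 230. For each of the 3 genes the groups by amplification, histotype and parity all overlapped. From the highest to the lowest epithelial tumour the spread was 44.5-fold for H2-Aa, 35.8-fold for H2-Ab1 and 62.8-fold for Cd74, against 6.91 to 8.02-fold for the class I chains and 9.74 to 18.9-fold for the peptide supply genes.

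**Figure D1:**
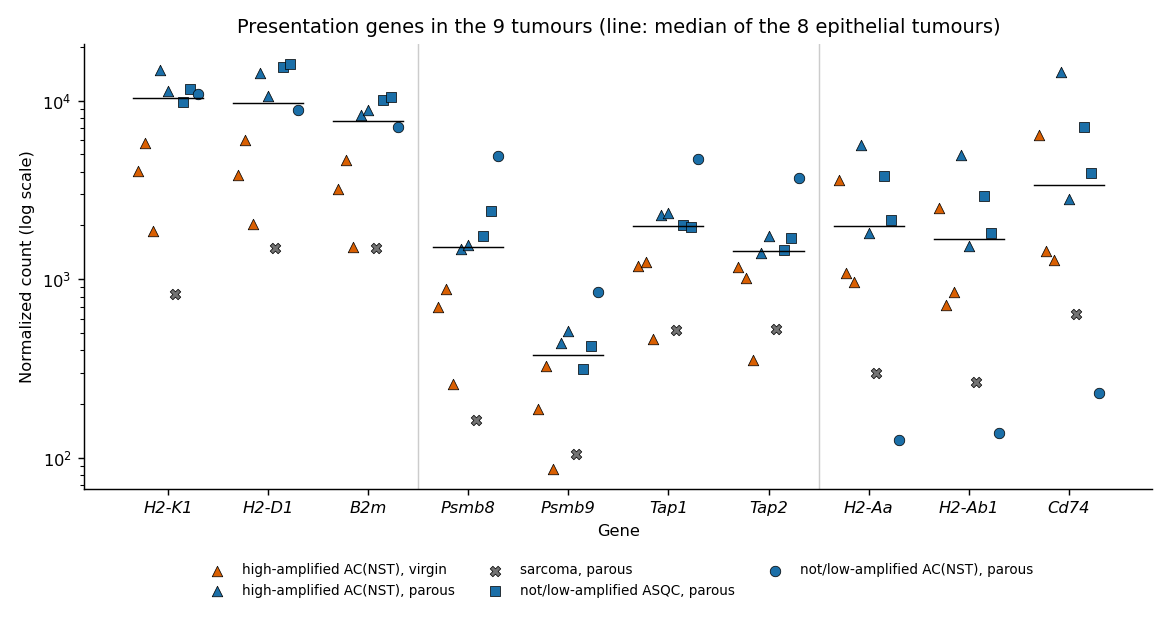
Normalized counts (log scale) of the 10 genes in each of the 9 tumours, with shape for amplification and histotype, colour for parity and a line at the median of the 8 epithelial tumours. Virgin tumours sit lowest among the epithelial tumours for the class I chains, and MS1166.1 (circle) is highest for the peptide supply genes and lowest for the class II genes.

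The first comparison asked whether these genes differed with amplification of the Erbb2 locus. None of the 10 was called between the 5 high-amplified and 3 not/low-amplified tumours (edgeR's quasi-likelihood test, Benjamini-Hochberg adjusted p under 0.05 and a fold beyond 2), where 0.921% of the 14007 genes tested were called. At an unadjusted p under 0.05 there was 1 member, Psmb8, against 22.8% of all genes. Psmb8 had a mean of 976 ± 544 (SD, n = 5) with high amplification and of 3022 ± 1669 (SD, n = 3) without it, and a log2 fold change of -1.60 ± 0.54 (SE) with an adjusted p of 0.131 by edgeR and 0.0469 by DESeq2, which called 10.5% of these genes. In the exact permutation test its p was 0.0357, the smallest that 5 against 3 tumours allow. It was also the only member without overlap, a state reached in this direction by 8.04% of genes.

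The other 6 class I and peptide supply genes were lower in the high-amplified tumours by fitted value, with log2 fold changes of -0.98 (Tap2) to -0.49 (H2-K1) and adjusted p from 0.255 to 0.640 by edgeR. The class II genes were higher by fitted value, 0.39 ± 0.90 (SE) for H2-Aa, 0.39 ± 0.88 for H2-Ab1 and 0.49 ± 1.04 for Cd74, and these signs turned without MS1218.2 and without MS1166.1. In AC(NST) tumours alone, where MS1166.1 is the only tumour without high amplification and is assumed to vary like the others, they were 4.36 ± 1.30, 3.93 ± 1.31 and 4.51 ± 1.72 (unadjusted p from 0.00961 to 0.0300, adjusted p from 0.150 to 0.216 by edgeR). Among the 5 parous tumours alone, the class I and peptide supply differences were between -0.93 (Psmb8) and 0.34 (H2-K1), with none at an unadjusted p under 0.05 by edgeR, against 10.5% of 13518 genes. The 6 epithelial markers were all lower in the high-amplified tumours by fitted value (median log2 fold change -1.12). Their summed levels were 29677 to 46946 against 71232 to 107480, with Krt14 alone at 51708 in MS1210.1. Epcam overlapped between the groups (7106 to 10234 against 8381 to 15685) and Cdh1 did not (6840 to 9068 against 13716 to 15631). The part of these markers in the Psmb8 difference was not tested.

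By histotype, none of the 10 genes was called between the 2 ASQCs and the 6 AC(NST) tumours, where edgeR called 0.236% of genes, and none had an unadjusted p under 0.05 (8.72% of genes). DESeq2 called none of the 10 either, and 2.81% of these genes. H2-D1 was at 15675 ± 445 (SD, n = 2) in the ASQCs and 7623 ± 4557 (SD, n = 6) in the AC(NST) tumours, with a log2 fold change of 1.04 ± 0.62 (SE) and an adjusted p of 0.667 by edgeR. B2m was at 10263 ± 233 and 5599 ± 2952, with a log2 fold change of 0.88 ± 0.58 and an adjusted p of 0.698. These were the 2 members in which every ASQC lay above every AC(NST), as in 5.3% of all genes. The other 8 had log2 fold changes between -0.10 (Psmb9) and 0.42 (H2-Aa). In not/low-amplified tumours alone, 2 ASQCs against MS1166.1, the class II genes were at 4.64 for H2-Aa, 4.18 for H2-Ab1 and 4.68 for Cd74. MS1166.1 was the only AC(NST) there, so the spread of that group was not measured. Its low class II values also enter the fit in AC(NST) tumours alone, so the 2 fits are not separate results. The exact permutation test over 2 against 6 tumours cannot give a p under 0.0714.

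By parity, the class I and peptide supply genes were all higher in the 5 parous tumours than in the 3 virgin tumours, but no gene of any kind passed the adjusted threshold in edgeR's test (0.0% of 14007, with 1984 genes at an unadjusted p under 0.05). H2-K1 was at 11716 ± 1892 (SD, n = 5) in parous and 3899 ± 1979 (SD, n = 3) in virgin tumours, a log2 fold change of 1.58 ± 0.42 (SE) with an adjusted p of 0.280 by edgeR. The values were 1.71 ± 0.44 for H2-D1 and 1.52 ± 0.41 for B2m. Among the peptide supply genes they were 1.95 ± 0.55 for Psmb8, 1.32 ± 0.48 for Psmb9, 1.44 ± 0.44 for Tap1 and 1.22 ± 0.48 for Tap2, with adjusted p from 0.279 to 0.329 over these 7 genes.

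The 7 genes all had an unadjusted p under 0.05 and a higher level in parous tumours, against 8.57% of all genes. In 6 of them, all but Psmb9, every parous tumour lay above every virgin tumour, against 5.35% of all genes, and the exact permutation p was 0.0357 for each, the smallest possible. With the mouse number as the unit this test could not give a p so small. With MS1163.1 and MS1163.2 summed, the log2 fold changes of the 7 genes were 1.07 (Tap2) to 1.88 (Psmb8), with an adjusted p of 0.636 by edgeR. Tap2 then had an unadjusted p of 0.0520, and the others stayed under 0.05. The 7 genes moved together across tumours, so these counts are not of independent results. MS1163.2 was the lowest epithelial tumour for each of the 7 genes. Without it, their log2 fold changes were 0.84 (Tap2) to 1.58 (Psmb8). Psmb9 and Tap2 then had an unadjusted p of 0.0702 and 0.0898 by edgeR, and the others stayed under 0.05. DESeq2 called 5 of the 10 members, H2-K1 (adjusted p = 0.00702), H2-D1 (0.00465), B2m (0.00933), Psmb8 (0.0175) and Tap1 (0.0499983), where it called 3.52% of these genes. The value of Tap1 lay almost on the threshold of 0.05. The class II genes were higher in parous tumours by fitted value with errors larger than the difference, at log2 fold changes of 0.51 ± 0.91 (SE) for H2-Aa, 0.73 ± 0.87 for H2-Ab1 and 0.90 ± 1.04 for Cd74. Single tumours moved these values widely, to 0.048, 0.23 and 0.20 without MS1218.2 and to 1.41, 1.55 and 2.09 without MS1213.1. Without MS1166.1 they were 0.82 ± 0.59, 1.04 ± 0.57 and 1.21 ± 0.76.

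The parity difference was also present within the high-amplified AC(NST) tumours. These hold all the virgin tumours and part of the parous ones, so this is a subset of the comparison above and no separate check. In this subset, both parous tumours lay above all 3 virgin tumours in 7 of the 10 genes, the same class I and peptide supply genes, against 11.5% of 13472 genes. For all of these but Psmb9, that already followed from the lack of overlap over all parous and virgin tumours. The log2 fold changes of these 7 were 0.91 ± 0.52 (Tap2) to 1.78 ± 0.57 (H2-K1), 5 had an unadjusted p under 0.05 by edgeR (5.18% of genes in this direction), and all had an adjusted p of 0.727. The class II genes were higher by about as much in fitted value but overlapped between the groups, at 1.01 ± 0.71 for H2-Aa, 1.29 ± 0.69 for H2-Ab1 and 1.54 ± 0.89 for Cd74, with the same adjusted p. A fit with amplification as a covariate was added after the data were seen. In it the 7 genes ran from 0.89 ± 0.56 (Tap2) to 1.75 ± 0.48 (H2-K1), each with an adjusted p of 0.684 by edgeR. Psmb8 was at 1.30 ± 0.56. Psmb9 and Tap2 had an unadjusted p of 0.0645 and 0.148 by edgeR in this fit, and the other class I and peptide supply genes were under 0.05.

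Other measures moved with parity too. The summed epithelial markers were 29677 to 38126 in virgin and 44973 to 107480 in parous tumours, without overlap. Keratins weigh heavily in this sum, with Krt14 alone at 51708 in MS1210.1, and of the single markers only Krt8 was without overlap. Epcam was at 7106 to 10234 in virgin and 7868 to 15685 in parous tumours, and Cdh1 at 6840 to 9068 and 8016 to 15631. All 6 markers were higher in parous tumours by fitted value (median log2 fold change 1.24, with 2 at an unadjusted p under 0.05). The summed leukocyte markers overlapped, at 1913 to 4312 in virgin and 912 to 10062 in parous tumours, and 3 of the 4 were higher in parous tumours by fitted value (median log2 fold change 0.99, none at an unadjusted p under 0.05). Of the 9 macrophage markers 8 were higher by fitted value, with a median of 1.40 and 1 at an unadjusted p under 0.05. The medians of the class I chains and peptide supply genes were 1.58 and 1.38, and the differences between these lists were not tested. The part of tumour composition in the parity difference was not tested, and in bulk tumours fewer cells of a type and less RNA per cell cannot be told apart.

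**Figure D2:**
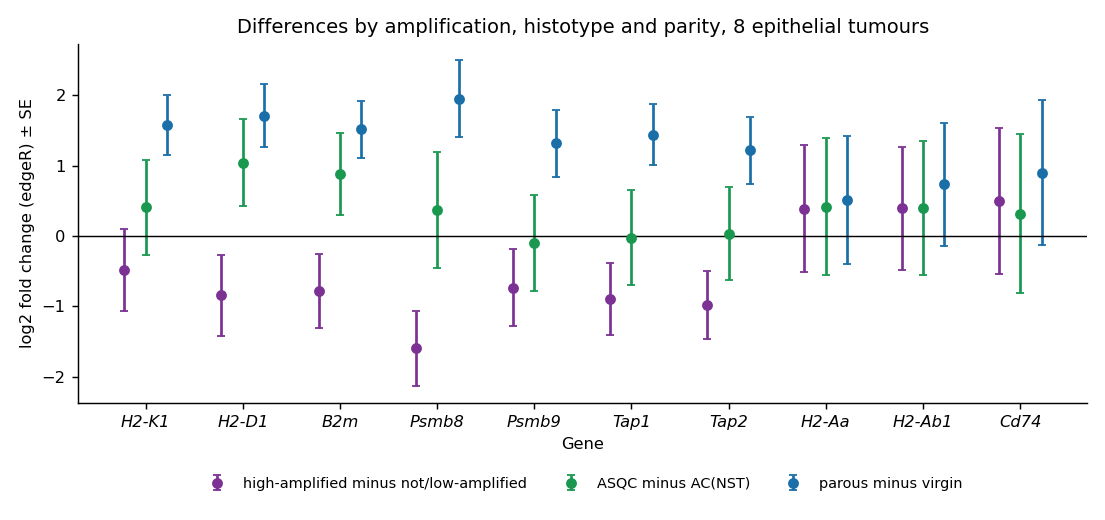
The log2 fold change of each gene (edgeR, points) with its SE (bars) for high-amplified minus not/low-amplified, ASQC minus AC(NST) and parous minus virgin tumours, over the 8 epithelial tumours. The parity values of the class I and peptide supply genes lie between 1.22 and 1.95, and those of the class II genes have errors wider than the difference.

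The rest of the pathway was described from lists of genes by role. The induced proteasome genes Psmb10, Psme1 and Psme2, a catalytic subunit and the 2 subunits of an activator cap, were all higher in parous tumours by fitted value (log2 fold changes of 1.07 to 1.26, each with an unadjusted p under 0.05), where 8.57% of all genes had such a p and were higher in parous tumours. Psmb5, Psmb6 and Psmb7, the constitutive catalytic subunits that Psmb8, Psmb9 and Psmb10 replace in the immunoproteasome, were at 0.54 to 0.62 with none under 0.05, and the difference between the lists was not tested. Of the 6 peptide loading genes, Tapbp, which bridges class I molecules to the transporter, was the only one under 0.05, at 1.45 ± 0.38 (SE) with an adjusted p of 0.280 by edgeR. Of the 13 other class I heavy chains tested, 10 were higher in parous tumours by fitted value and 3 were higher with an unadjusted p under 0.05 (against the same 8.57%), H2-Q4 among them at 1.38 ± 0.40. Across all genes the median log2 fold change by parity was 0.10.

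Of the 12 interferon gamma targets tested, 10 were higher in parous tumours by fitted value, 7 of them with an unadjusted p under 0.05 (against 8.57% of all genes), around a median log2 fold change of 1.24. Igtp, an interferon-induced GTPase, was at 1.85 ± 0.42. By amplification 9 of these 12 were lower in high-amplified tumours and 3 of them had an unadjusted p under 0.05, a share near the overall one, since 22.8% of all genes had such a p and 11.0% were also lower with high amplification. The chemokine Cxcl10 was among the 3, at -1.81 ± 0.48. Ifng itself was listed at 0 to 2.49 normalized counts and was not tested. Irf1, a transcription factor induced by interferon gamma, was at 0.74 ± 0.28 by parity (adjusted p = 0.323 by edgeR).

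Nlrc5, the class I transactivator, did not follow the class I chains. It was highest in MS1155.3 at 1982, between 187 and 624 in the other 7 epithelial tumours, and lowest in MS1166.1, where the peptide supply genes were highest. Over the 8 epithelial tumours its Pearson r with H2-K1 was 0.291 (Spearman rho 0.405, permutation p = 0.479 and 0.327, adjusted p = 0.615 over 9 relations computed), and 0.114 without MS1213.1 and MS1163.2. By amplification it was at 1.30 ± 0.64 (SE), with an adjusted p of 0.261 by edgeR, opposite in sign to the class I chains.

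**Figure D3:**
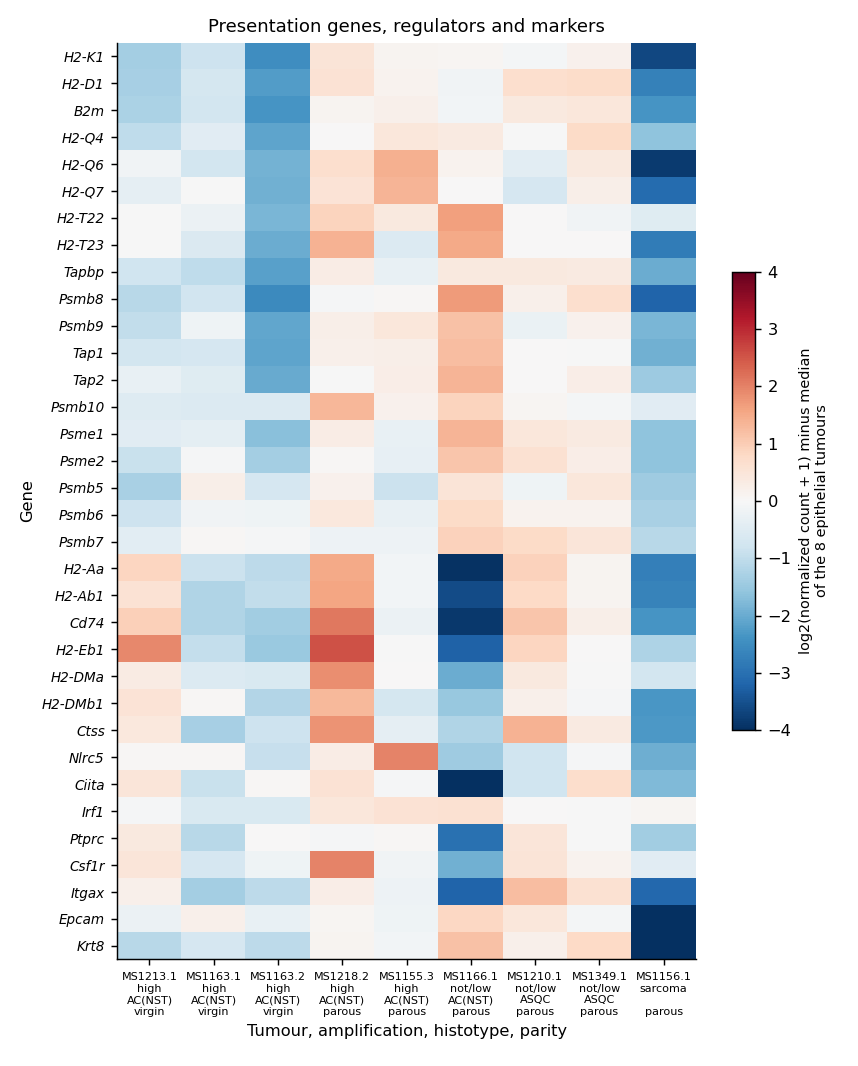
Heatmap of log2(normalized count + 1) minus the median of the 8 epithelial tumours, for presentation genes, regulators and marker genes (rows) in the 9 tumours (columns). H2-K1, H2-D1, B2m, Tapbp, Psmb8, Psmb9, Tap1 and Tap2 are lowest of the 8 epithelial tumours in MS1163.2 and below their median in the sarcoma, and H2-Aa, H2-Ab1 and Cd74 with Ciita and Ptprc are lowest in MS1166.1.

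Across the 8 epithelial tumours, on the log2 scale, members of 1 role moved together. The median Pearson r between pairs was 0.964 within the class I chains, 0.966 within the peptide supply genes and 0.994 within the class II genes. It was 0.827 between class I chains and peptide supply genes, 0.211 between class I chains and class II genes, and -0.265 between class II and peptide supply genes. These values describe 8 tumours that share 1 scaling each, and carry no p.

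The class II genes tracked leukocyte genes. Csf1r, the receptor of a macrophage growth factor, was at 573 in MS1166.1 and 8516 in MS1218.2, the lowest and highest tumours also for H2-Aa, and between 1358 and 3097 in the others. Its Pearson r with H2-Aa was 0.926 and Spearman rho 0.976 (permutation p = 0.000347 and 0.000397, adjusted p = 0.00313 and 0.00357), and r was 0.905 without these 2 tumours. Ptprc, the common leukocyte antigen CD45, was at 208 in MS1166.1 and 762 to 2303 in the others, with r = 0.903 (permutation p = 0.0211, adjusted p = 0.0474) but rho = 0.500 (permutation p = 0.216, adjusted p = 0.389), and r = 0.727 without the same 2 tumours. H2-K1 had r = -0.185 and rho = -0.286 with Ptprc (permutation p = 0.823 and 0.501, adjusted p = 0.823 and 0.501) and r = 0.220 without MS1213.1 and MS1163.2.

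Ciita, the class II transactivator, was at 7.14 in MS1166.1 and 171 to 522 in the other 7 epithelial tumours. Its r with H2-Aa was 0.873 and rho 0.571 (permutation p = 0.0504 and 0.151, adjusted p = 0.0757 and 0.340), and r = 0.177 without MS1218.2 and MS1166.1, on which the relation rests. The dendritic cell markers summed to 137 in MS1166.1 and 474 to 1582 in the others, most of it Itgax and Zbtb46. Of the scarcer ones, Xcr1, Clec9a and Cd209a were at 0 in MS1166.1, Xcr1 also in MS1163.2. Ccr7 in MS1166.1, at 11.9, was above MS1163.1, MS1163.2 and MS1155.3, and Flt3, at 5.95, above MS1163.1. The 5 B cell markers summed to 6.30 to 82.4 in all epithelial tumours, and 1 of them passed the filter. The part of these cells in the class II values was not tested.

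Within class I and peptide supply, H2-K1 and B2m had r = 0.964 and rho = 0.762 (permutation p = 0.00392 and 0.0368, adjusted p = 0.0118 and 0.110), with r = 0.742 without MS1213.1 and MS1163.2. With the tumours of the shared mouse number averaged, r was 0.938 and no longer passed (adjusted p = 0.120, permutation test). Tap1 and Psmb9, whose genes overlap, had r = 0.967 and rho = 0.929 (permutation p = 0.000893 and 0.00223, adjusted p = 0.00402 and 0.0100), with r = 0.821 without MS1163.2 and MS1166.1. H2-K1 with H2-Aa had r = 0.106 and rho = 0.405 (permutation p = 0.660 and 0.327, adjusted p = 0.743 and 0.420), and r = 0.259 without MS1213.1 and MS1163.2.

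**Figure D4:**
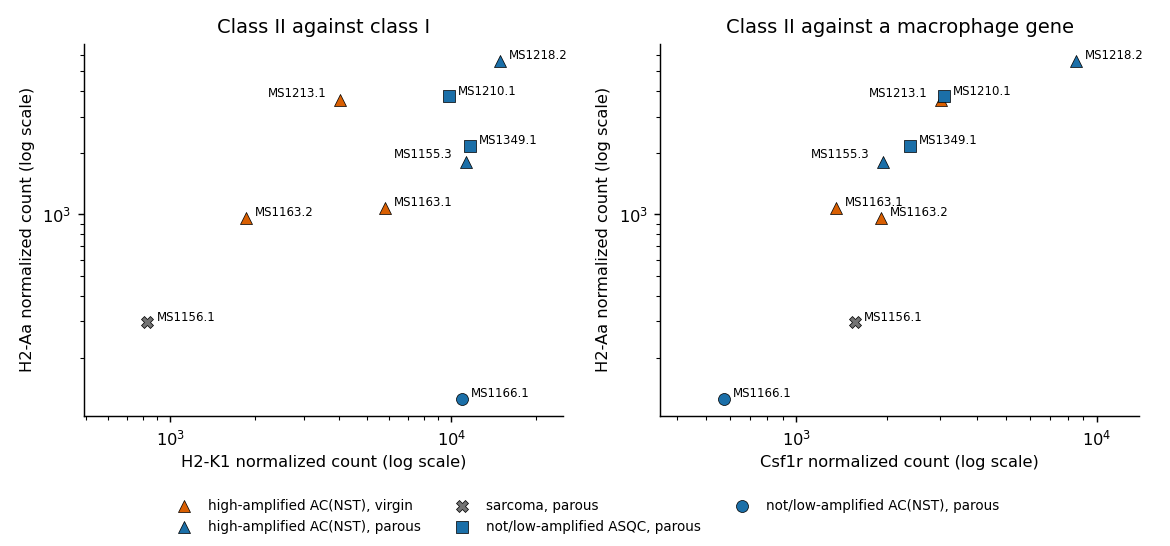
Normalized counts of H2-Aa against H2-K1 (left) and against Csf1r (right), both axes on a log scale, 1 point per tumour. MS1166.1 has an H2-K1 count of 10942 with an H2-Aa count of 126, and H2-Aa is highest and lowest in the same epithelial tumours as Csf1r.

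MS1166.1 thus combined a class I level near the middle of the epithelial tumours, the highest peptide supply and the lowest class II. Its ratio of H2-Aa to H2-K1 was 0.0115, against 0.160 to 0.895 in the other 7 epithelial tumours. The counts behind it were 106 for H2-Aa, 116 for H2-Ab1 and 193 for Cd74 out of 15265197. Its ratio of Cd74 to H2-Aa, 1.82, was within the range of the others, 1.32 to 2.57, so that the class II genes were low in proportion. Its summed leukocyte markers, 912, were the lowest of the 8 epithelial tumours (1913 to 10062 in the others), and its Epcam level, 15685, was the highest. It was the only not/low-amplified AC(NST), so that no replicate of this kind was at hand.

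The genes most like H2-K1 by Pearson r over the 8 epithelial tumours, outside the 10, were Wdtc1 (0.986), Adm2 (0.984), Trim46 (0.981), Rps6ka1 (0.980) and Ankrd9 (0.973), with Tapbp in place 35 (0.936). Those most like Cd74 were Vav1 (0.988), Tlr9 (0.985), Aif1 (0.984), Ppfia4 (0.980) and Bin2 (0.979), with the class II chain H2-Eb1 in place 8 (0.974) and Csf1r in place 41 (0.953). Vav1 is a signalling protein of blood cells and Aif1 a macrophage protein. These places are out of the genes tested and are a description.

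In the sarcoma MS1156.1, every member was below the median of the epithelial tumours. H2-K1 was at 830, H2-D1 at 1497, B2m at 1490 and Psmb8 at 162, each below all 8 epithelial tumours, as were 20.0% of all genes tested. Psmb9 was at 105, Tap1 at 521 and Tap2 at 523, above MS1163.2 alone. H2-Aa was at 297, H2-Ab1 at 264 and Cd74 at 639, above MS1166.1 alone. The level was 12.5-fold below the epithelial median for H2-K1, 9.36-fold for Psmb8, 6.51-fold for H2-D1, 5.16-fold for B2m and 2.74-fold for Tap2. B2m was only 1.01-fold below the lowest epithelial tumour. The ratio of H2-K1 to B2m was 0.557, below the epithelial range of 0.974 to 1.80. With 1 sarcoma, the difference has no replicate check.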

How the data were processed

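Ribosomal RNA-depleted RNA of 9 tumours was sequenced with a strand-specific kit. Per the study's methods, reads were aligned with STAR to mouse build 38, only uniquely placed reads with at most 3 mismatches being kept, and the authors deposited HTSeq-count read counts per gene. The signal values that the authors deposited for the 8 epithelial tumours are these counts divided by 1 DESeq2 size factor per tumour (0.776 to 1.42). The sarcoma was scaled here in the same way (0.704). Depth was 12501225 to 23912429 counts, and 3 counts are 1.25e-05% to 2.40e-05% of a library.

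Groups came from the sample labels. Counts were tested with edgeR 4.0.16 (TMM, glmQLFit, glmQLFTest, Benjamini-Hochberg over the 14007 genes that reached 10 counts in 3 or more epithelial tumours). Genes with an adjusted p under 0.05 and a log2 fold change beyond 1 were called. Single members were tested by exact permutation on log2(normalized count + 1), two-sided. The edgeR steps were tested on simulated counts, with known fold changes larger than those of the members in the main comparisons. Alternatives were DESeq2 1.42.0, limma 3.58.1, other scalings and filters, covariates, subsets and each tumour left out. R 4.3.3, Python 3.11.15 and scipy 1.17.1 were used. Positions are from GENCODE M21. Of the deposited genes, 18420 of 18484 matched it.

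The members and gene lists were chosen with earlier results of these data known. All members were named, other genes by list counts, by smallest unadjusted p in a list or for a fixed role as regulator or marker. H2-Q4, Tapbp and Igtp by parity, and the ratio of H2-K1 to H2-D1, were named after their values were seen. A planned comparison of the H2-K1 and H2-D1 proteins was replaced by shared 76-base stretches of their transcripts. Of the 9 relations between genes, over which their p-values were adjusted, 1 is not reported here.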

Additional observations from a re-analysis of the deposited data

Results flagged for a closer look

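In 2 of 30 combinations of group and gene, 1 tumour was set apart by a wide gap, where chance alone gives about 1 in 20. Both were MS1166.1 among the 5 parous epithelial tumours, with Tap1 at 4688 normalized counts against 1956 to 2359 in the other 4, and Tap2 at 3706 against 1401 to 1735. The gap to the nearest tumour was 0.786 of the whole range for Tap1 and 0.780 for Tap2. The genes lie close to each other, encode both parts of 1 transporter and moved together, so these are not independent observations.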

How the results depend on the processing

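Genes called by amplification numbered 129, and 1591 with DESeq2, 229 without the low-count filter, 31 with the tumours of the same mouse number summed, 40 in AC(NST) tumours alone, 0 with parity as a covariate and 0 in parous tumours alone, and 1 (without MS1210.1) to 1255 (without MS1218.2) with 1 tumour left out, where each tumour moved it by over 1.5 times. By histotype the 33 became 518 with DESeq2, 171 without the filter, 87 with a mean count of at least 50, 14 with limma, 18 with the same mouse number summed, 0 in not/low-amplified tumours alone, 2 with parity as a covariate and 4 (without MS1349.1) to 84 (without MS1166.1) with 1 tumour left out. By parity the 0 became 511 with DESeq2 and 0 to 147 with 1 tumour left out, the 147 being without MS1155.3. The number of members with an exact p under 0.05 by amplification went from 1 to between 0 and 0 with 1 tumour left out, where the smallest possible p is 0.0571 or 0.0952. Of the members' log2 fold changes, 171 of 180 by amplification, 148 of 170 by histotype and 165 of 170 by parity kept sign and call. DESeq2 added the calls of Psmb8 by amplification and of 5 members by parity. Signs turned in 8 and 22 values by amplification and histotype and in 0 by parity, none of them called, and the cause was not tested. By amplification H2-K1 turned to 0.30 with parity as a covariate and 0.34 in parous tumours alone. With 1 tumour left out, H2-Aa ran from -0.17 to 1.23, H2-Ab1 from -0.19 to 1.15 and Cd74 from -0.32 to 1.39, below 0 without MS1218.2 and without MS1166.1. By histotype with parity as a covariate, H2-K1 turned to -0.20, Psmb8 to -0.32, Tap2 to -0.50 and Cd74 to -0.080. In not/low-amplified tumours alone Psmb8 was at -1.15 and Tap2 at -1.14, with limma Psmb9 was at 0.20 and Tap1 at 0.30, and Tap2 was at -0.0060 without the filter and -0.12 with the same mouse number summed. With 1 tumour left out, Psmb9 ran from -0.35 to 0.24, Tap1 from -0.23 to 0.39, Tap2 from -0.18 to 0.47, H2-Aa from -0.072 to 0.95, H2-Ab1 from -0.018 to 1.03 and Cd74 from -0.22 to 1.17. The sarcoma was below all epithelial tumours in 4 members, and in 5 when scaled by total counts. By Pearson r, 4 relations between genes passed, against 3 with the tumours of the same mouse number averaged. By Spearman rho, only H2-Aa with Csf1r and Tap1 with Psmb9 passed, in either setting. No paired analysis was possible because the replicate numbers were given in accession order and pair no tumours.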
